A study of Mus musculus with 6 samples.

Results

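Transcripts that mark macrophages and monocytes were followed in the thoracic aorta of mice infused with angiotensin II (Ang-II) or saline. The group is a list of 40 gene symbols for the surface receptors, adaptors, enzymes and cytoskeletal proteins by which these cells are recognised in mouse tissue, and it was chosen by gene name, not by a cell sort. This choice was made with earlier results of these data known. Shares of members set against all genes are therefore descriptions and not independent tests. Of the 40, 39 had a probe with a gene name on the array, and 31 had a probe that at least 2 of the 6 arrays detected at p under 0.01. These 31 were tested among 9837 genes that met the same rule. They include Adgre1, which the older annotation calls Emr1, and Lilrb4a, which it calls Lilrb4. Cd68 was unnamed among the probes used here.

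Macrophages arise from progenitors seeded before birth and from circulating monocytes, and both depend on signalling through the colony stimulating factor receptor Csf1r and on the transcription factor PU.1, encoded by Spi1. They sense antibody-coated particles, microbial sugars and cell debris through Fc receptors, lectins and scavenger receptors, and many of these signal through small adaptor proteins such as Fcer1g and Tyrobp. In arteries, macrophages lie mainly in the adventitia, and Ang-II infusion is widely used in mice to provoke hypertension and vascular inflammation.

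The aortas came from mice of C57 Bl/6 background, 12 weeks old, that carried osmotic pumps for 14 days. WT saline mice were wild-type littermates given 0.9% saline, and WT Ang-II mice received 1.25 ug/kg/min of Ang-II in that saline. TG saline and TG Ang-II mice had the same infusions and carried the SM-CaMKIIN transgene, which makes CaMKIIN, a peptide that blocks the calcium-activated kinase CaMKII, only in smooth muscle, so the transgene was not directed to macrophages. Each group had 5 mice whose RNA was pooled, with 1 array for each saline group and 2 for each Ang-II group. The titles call the paired Ang-II arrays biological replicates although the protocols describe pooling by group. The p-values therefore reflect array-to-array spread alone, possibly technical, and the lone saline array of each genotype is assumed to vary as the Ang-II arrays do. The promoter that drives the transgene and the sex of the mice were not given in the sources used here.

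The 6 arrays had median raw intensities from 110 to 130.5 and detected 15393 to 16075 of 45281 probes. Smooth muscle transcripts marked the tissue as labelled, with Acta2, the smooth muscle actin, between 15.02 and 15.19 on the log2 scale on the 6 arrays. The 2 Ang-II arrays of a genotype correlated at 0.991 in WT and 0.99 in TG across kept probes, which are not independent replicates. Values below are log2 intensities after background correction and quantile normalization, and differences are log2 differences with their standard error (SE). Adjusted p-values are those of limma's moderated test over all 16749 kept probes, and a gene passed when its adjusted p was under 0.05.

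The DNA just before the transcription start of members that rose with Ang-II is shown because PU.1 governs many myeloid genes and binds a purine-rich core. The RefSeq table of GRCm38.p6 held 36 windows for 28 of the 40 members. These include members that were not detected or did not rise, and overlapping windows of Fcgr3, of Clec7a and of Ptprc were counted separately. The core GAGGAA, read on either strand in the 250 bases before the start, was present in 16 of these 36 windows (44.4%) and in 7639 of all 32851 windows (23.3%). The unrelated element TATAAA, which shares no overlap with that core, was found in 2 of the 36 windows (5.56%) and in 12.4% of all windows. A match is a description of the letters and not evidence of binding. The last 150 bases before the start follow, each read 5′ to 3′ on the strand of its gene, with matches to the core or to its reverse complement TTCCTC in capitals.
Cd53 chr3:106790150-106790299 minus strand: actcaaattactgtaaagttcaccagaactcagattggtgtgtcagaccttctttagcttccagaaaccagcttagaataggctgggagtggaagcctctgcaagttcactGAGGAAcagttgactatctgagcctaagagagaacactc
Mrc1 chr2:14229264-14229413 plus strand: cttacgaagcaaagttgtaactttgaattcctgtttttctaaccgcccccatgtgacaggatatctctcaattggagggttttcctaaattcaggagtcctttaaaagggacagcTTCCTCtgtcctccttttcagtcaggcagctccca
Trem2 chr17:48346251-48346400 plus strand: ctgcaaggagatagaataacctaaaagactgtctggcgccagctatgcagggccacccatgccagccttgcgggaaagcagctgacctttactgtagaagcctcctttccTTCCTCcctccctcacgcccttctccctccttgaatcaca
Mpeg1 chr19:12460620-12460769 plus strand: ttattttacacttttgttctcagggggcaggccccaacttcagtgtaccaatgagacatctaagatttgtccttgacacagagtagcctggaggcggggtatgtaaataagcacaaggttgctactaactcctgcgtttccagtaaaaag
Fcer1g chr1:171234350-171234499 minus strand: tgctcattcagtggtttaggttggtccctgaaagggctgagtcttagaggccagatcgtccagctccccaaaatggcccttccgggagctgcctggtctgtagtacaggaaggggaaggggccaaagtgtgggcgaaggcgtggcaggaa
The core begins at position -39 from the start in Cd53, at position -35 in Mrc1 and at position -40 in Trem2, where position -1 is the last base before the start. Neither Mpeg1 nor Fcer1g has the letters in the bases shown or in the longer window searched.

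Most of the measurable macrophage and monocyte transcripts were higher after Ang-II in WT aorta. Of the 31 tested, 24 rose, none fell and 7 did not pass. Of all genes 6.09% rose and 2.63% fell in this comparison. The median log2 difference of the 31 was 1.13, while that of all genes was -0.05. Measured differences ranged from 0.02 for Pf4 to 1.82 for Ms4a7. For 4 members, Cx3cr1, Clec7a, Lilrb4a and Fcgr1, WT saline was not above background and the difference is only a bound, and with these at their bounds the median was 1.11. A gene that is kept only because it is bright under Ang-II is bound to differ, so the count was also taken over the 27 members detected on all 6 arrays, with refitting and a background of 7.41%. Of these, 22 rose and none fell. In bulk tissue, more cells of a type and more RNA per cell cannot be told apart. Most of these calls were lost when either WT Ang-II array was left out. Such a fit sets 1 array against 1 with fewer residual degrees of freedom. The lost calls therefore do not by themselves show that the rises rest on 1 array. Only Pf4 then changed the sign of its WT difference (-0.085 to 0.12). Both WT Ang-II arrays stood above the WT saline array for 30 of 31 members, against 36.8% of all genes. Cx3cr1, Lilrb4a and Fcgr1 are among the 30 and were kept only through Ang-II arrays, so the filter favoured this order for them.

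In TG aorta 14 of the 31 rose, none fell and 17 did not pass, while 5.23% of all genes rose and 1.56% fell. The median difference was 0.75, against -0.06 for all genes. Among the 27 detected on all arrays, 17 rose after refitting, with a background of 5.56%. Both TG Ang-II arrays stood above the TG saline array for 31 of 31 members, against 33.5% of all genes. The count was 6 without the first TG Ang-II array, 8 without the second and 7 without either WT Ang-II array. Averaged over both genotypes, 27 rose and none fell, against 10.4% of all genes that rose and 7.01% that fell, and 26 were higher on each Ang-II array than on each saline array, against 15.4%. The 26 include Cx3cr1 and Lilrb4a, which were kept only through Ang-II arrays. Lilrb4a and Fcgr1 were not detected on any TG array, so their place among the 31 of 31 is not a measured order.

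**Figure D1:**
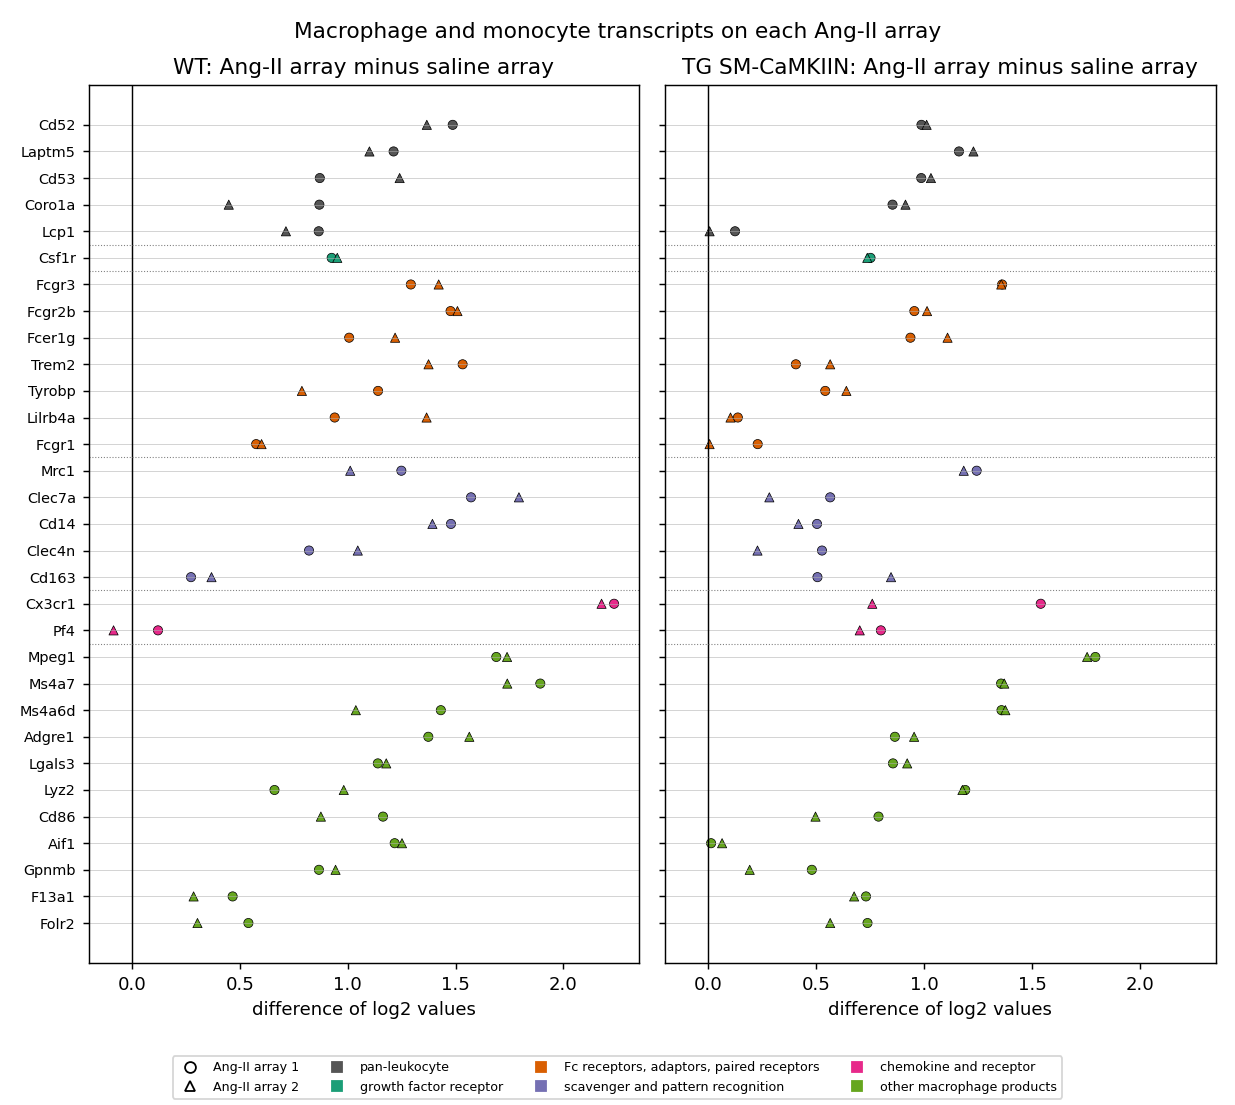
Each point is the log2 value of 1 Ang-II array minus the saline array of the same genotype, for the 31 tested members grouped by role, with circles and triangles for the 2 Ang-II arrays. Points lie to the right of 0 for every member except Pf4 on 1 WT array, and Lcp1, Fcgr1 and Aif1 lie close to 0 in TG. Fcgr1 and Lilrb4a were not detected on any TG array, so their TG points are not measured differences.

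The list opens with proteins that all leukocytes carry. Ptprc, the leukocyte phosphatase CD45, and Cd48, a surface ligand of lymphocytes and myeloid cells, were not detected on any array. Of the 5 tested, 4 rose in WT and 3 in TG. Cd52, a short surface glycoprotein, read 7.48 in WT saline against 8.96 and 8.84 in WT Ang-II, and 7.84 in TG saline against 8.83 and 8.86 in TG Ang-II. All 4 Ang-II arrays lay above both saline arrays, and the rise was 2.69-fold in WT (log2 1.43 ± 0.15, adjusted p = 0.00819) and 2.00-fold in TG (1.00 ± 0.15, adjusted p = 0.0221). Laptm5, a lysosomal membrane protein of blood cells, read 11.18 in WT saline against 12.40 and 12.29 in WT Ang-II, and 11.01 in TG saline against 12.17 and 12.24 in TG Ang-II. The Ang-II arrays stood clear of saline and those of WT lay slightly above those of TG, with a rise of 2.23-fold in WT (1.16 ± 0.16, adjusted p = 0.0132) and 2.29-fold in TG (1.20 ± 0.16, adjusted p = 0.0137). The tetraspanin Cd53 read 7.71 in WT saline against 8.58 and 8.95 in WT Ang-II, and 7.47 in TG saline against 8.46 and 8.50 in TG Ang-II. All Ang-II arrays were above saline, and Cd53 rose 2.08-fold in WT (1.05 ± 0.20, adjusted p = 0.0342) and 2.01-fold in TG (1.01 ± 0.20, adjusted p = 0.0421).

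The other 2 of these bind actin. Lcp1, the leukocyte plastin that bundles actin filaments, read 5.97 in WT saline against 6.84 and 6.68 in WT Ang-II, and 5.88 in TG saline against 6.01 and 5.89 in TG Ang-II. Its WT Ang-II arrays lay above all the others while the TG Ang-II arrays lay at saline level, so that it rose in WT (0.79 ± 0.16, adjusted p = 0.0421) and differed by 0.07 in TG (adjusted p = 0.843). That WT call of Lcp1 was lost under quantile normalization without background correction, under a trended prior, without a detection filter and when either WT Ang-II array was left out. Coro1a, an actin-binding protein of leukocytes, read 8.42 in WT saline against 9.29 and 8.87 in WT Ang-II, and 8.36 in TG saline against 9.21 and 9.27 in TG Ang-II. All 4 Ang-II arrays were above saline, but the WT difference (0.66 ± 0.21, adjusted p = 0.117) and the TG difference (0.89 ± 0.21, adjusted p = 0.0677) did not pass. Averaged over both genotypes Coro1a rose (0.77 ± 0.15, adjusted p = 0.022), while 1 of its other kept probes did not pass (0.48 ± 0.16, adjusted p = 0.0967). The other 2 kept Coro1a probes passed in neither genotype.

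Csf1r, the receptor for the growth factors Csf1 and Il34 and a lineage receptor of macrophages, rose in both genotypes. It read 8.89 in WT saline against 9.82 and 9.85 in WT Ang-II, and 8.62 in TG saline against 9.37 and 9.35 in TG Ang-II. The TG Ang-II arrays fell between the saline arrays and the WT Ang-II arrays without overlap. Csf1r was 1.92-fold higher in WT (0.94 ± 0.15, adjusted p = 0.0212) and 1.67-fold higher in TG (0.74 ± 0.15, adjusted p = 0.0428). Spi1, which encodes PU.1, was not detected on any array and read 4.46 in WT saline against 4.68 and 4.45 in WT Ang-II, and 4.82 in TG saline against 4.77 and 4.74 in TG Ang-II.

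Fc receptors and the adaptors and paired receptors that share their signalling route formed the next set. All 7 had a kept probe, and 6 rose in WT and 3 in TG. Fcgr3, a low-affinity activating receptor for IgG, read 7.54 in WT saline against 8.83 and 8.96 in WT Ang-II, and 7.96 in TG saline against 9.32 and 9.32 in TG Ang-II. Every Ang-II array exceeded saline, the TG Ang-II arrays being the highest of all, with rises of 2.56-fold in WT (1.36 ± 0.15, adjusted p = 0.00918) and 2.57-fold in TG (1.36 ± 0.15, adjusted p = 0.00987). Fcgr2b, the inhibitory receptor for IgG, read 7.50 in WT saline against 8.98 and 9.01 in WT Ang-II, and 7.64 in TG saline against 8.60 and 8.66 in TG Ang-II. Its WT Ang-II arrays were the highest and its TG Ang-II arrays the next, and it rose 2.81-fold in WT (1.49 ± 0.15, adjusted p = 0.0068) and 1.98-fold in TG (0.98 ± 0.15, adjusted p = 0.0212), and its other kept probe rose in both genotypes as well. Fcer1g, the gamma chain through which activating Fc receptors signal, read 9.41 in WT saline against 10.42 and 10.63 in WT Ang-II, and 8.39 in TG saline against 9.33 and 9.50 in TG Ang-II. Both TG Ang-II values lay around the WT saline value, the TG saline array was the lowest of all, and the rises were 2.16-fold in WT (1.11 ± 0.18, adjusted p = 0.0219) and 2.03-fold in TG (1.02 ± 0.18, adjusted p = 0.0301).

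Trem2, a receptor for lipids and apoptotic cells, read 6.12 in WT saline against 7.66 and 7.50 in WT Ang-II, and 6.61 in TG saline against 7.01 and 7.17 in TG Ang-II. Its 4 Ang-II arrays were above saline, and it rose 2.74-fold in WT (1.45 ± 0.17, adjusted p = 0.00949), while the TG difference was 0.49 ± 0.17, adjusted p = 0.152. Tyrobp, the adaptor through which Trem2 signals, read 7.23 in WT saline against 8.38 and 8.02 in WT Ang-II, and 7.53 in TG saline against 8.07 and 8.17 in TG Ang-II. The Ang-II arrays of the genotypes overlapped, and Tyrobp rose in WT (0.96 ± 0.20, adjusted p = 0.0416) but did not pass in TG (0.59 ± 0.20, adjusted p = 0.142). Lilrb4a, an inhibitory receptor of the leukocyte immunoglobulin-like family, read 5.01 in WT saline against 5.95 and 6.38 in WT Ang-II, and 5.44 in TG saline against 5.58 and 5.55 in TG Ang-II. It was detected on the WT Ang-II arrays only and was at least 1.45-fold higher there than in WT saline. Lilrb4a was kept only through those arrays, so the filter favoured this rise. Its call in WT (limma adjusted p = 0.0322, for the fitted difference) is therefore no independent support. Lilr4b, its close copy, differed by 1.48 in WT and 0.67 in TG on its own kept probe. An at-least value sets the mean of the brighter group against the lowest signal detected on the dimmer arrays, or the dim probe's own value where that is higher. An adjusted p beside such a value is that of the fitted difference and not of the bound. Fcgr1, the high-affinity receptor for IgG, read 5.30 in WT saline against 5.87 and 5.90 in WT Ang-II, and 5.09 in TG saline against 5.32 and 5.09 in TG Ang-II. It too was detected on the WT Ang-II arrays only, at least 1.19-fold above WT saline, and passed in neither genotype (adjusted p = 0.0901 in WT and 0.716 in TG).

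Receptors for microbial sugars, lipopolysaccharide and spent haemoglobin make up the scavenger and pattern recognition set. The scavenger receptors Msr1 and Marco were not detected on any array. Of the 5 tested, 4 rose in WT and 1 in TG. Mrc1, the mannose receptor, read 9.32 in WT saline against 10.57 and 10.33 in WT Ang-II, and 9.05 in TG saline against 10.30 and 10.24 in TG Ang-II. The TG Ang-II values lay just below those of WT Ang-II and all lay above saline, and Mrc1 rose 2.19-fold in WT (1.13 ± 0.17, adjusted p = 0.019) and 2.32-fold in TG (1.21 ± 0.17, adjusted p = 0.0174). Cd14, the co-receptor for lipopolysaccharide, read 7.71 in WT saline against 9.19 and 9.10 in WT Ang-II, and 7.82 in TG saline against 8.32 and 8.24 in TG Ang-II. Its order was saline, TG Ang-II and WT Ang-II without overlap, and it rose 2.71-fold in WT (1.44 ± 0.15, adjusted p = 0.00819) while the TG difference was 0.46 ± 0.15, adjusted p = 0.141. Clec7a, the beta-glucan receptor dectin-1, read 5.32 in WT saline against 6.89 and 7.12 in WT Ang-II, and 5.80 in TG saline against 6.37 and 6.08 in TG Ang-II. It was not detected in WT saline and was at least 2.59-fold higher in WT Ang-II (adjusted p = 0.00964), whereas the TG difference was 0.42 ± 0.20, adjusted p = 0.251.

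Clec4n, the mannan receptor dectin-2, read 5.85 in WT saline against 6.67 and 6.90 in WT Ang-II, and 5.82 in TG saline against 6.34 and 6.04 in TG Ang-II. The TG Ang-II arrays lay between saline and WT Ang-II, and Clec4n rose in WT (0.93 ± 0.20, adjusted p = 0.046), with a TG difference of 0.38 ± 0.20, adjusted p = 0.308. Cd163, which takes up haemoglobin bound to haptoglobin, read 9.37 in WT saline against 9.65 and 9.74 in WT Ang-II, and 9.33 in TG saline against 9.83 and 10.18 in TG Ang-II. Here the TG Ang-II arrays were the highest, and neither the WT difference (0.32 ± 0.20, adjusted p = 0.342) nor the TG difference (0.68 ± 0.20, adjusted p = 0.105) passed.

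Among chemokine members the receptor of fractalkine rose in WT and the platelet chemokine did not pass. Cx3cr1, the fractalkine receptor of monocytes and resident macrophages, read 5.33 in WT saline against 7.56 and 7.51 in WT Ang-II, and 5.65 in TG saline against 7.19 and 6.41 in TG Ang-II. It was detected on the 4 Ang-II arrays and on neither saline array, at least 3.74-fold higher in WT Ang-II (adjusted p = 0.0159) and at least 2.19-fold higher in TG Ang-II (adjusted p = 0.0953). Cx3cr1 was kept only through Ang-II arrays, so the filter favoured this order. The 2 TG Ang-II arrays lay further apart than those of any other tested member. Pf4, a chemokine stored in platelets and also made by some macrophages, read 10.38 in WT saline against 10.50 and 10.29 in WT Ang-II, and 9.98 in TG saline against 10.78 and 10.68 in TG Ang-II. WT Ang-II values straddled the WT saline value (0.02 ± 0.17, adjusted p = 0.956), and the TG difference was 0.75 ± 0.17, adjusted p = 0.0575. Ccr2, the receptor that draws monocytes out of bone marrow, and the integrin chains Itgam and Itgb2 were not detected on any array. The 13 probes of the 8 undetected members read between 4.40 and 5.42, so their changes could not be measured here.

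The remaining 11 members are secreted, lysosomal or surface products of macrophages, and 8 rose in WT and 6 in TG. Mpeg1, the pore-forming perforin-2 of phagocytes, read 7.98 in WT saline against 9.67 and 9.72 in WT Ang-II, and 7.80 in TG saline against 9.59 and 9.55 in TG Ang-II. All Ang-II values stood above saline with little spread, and Mpeg1 rose 3.28-fold in WT (1.71 ± 0.15, adjusted p = 0.00503) and 3.42-fold in TG (1.77 ± 0.15, adjusted p = 0.00603). Ms4a7, a tetraspan membrane protein of macrophages, read 7.54 in WT saline against 9.43 and 9.28 in WT Ang-II, and 7.07 in TG saline against 8.42 and 8.44 in TG Ang-II. It rose 3.52-fold in WT (1.82 ± 0.16, adjusted p = 0.00503) and 2.57-fold in TG (1.36 ± 0.16, adjusted p = 0.0104), the TG Ang-II arrays lying between saline and WT Ang-II. Ms4a6d of the same family read 7.96 in WT saline against 9.39 and 8.998 in WT Ang-II, and 7.70 in TG saline against 9.06 and 9.08 in TG Ang-II. Its Ang-II ranges overlapped, with rises of 2.35-fold in WT (1.24 ± 0.21, adjusted p = 0.0245) and 2.58-fold in TG (1.37 ± 0.21, adjusted p = 0.0204), and its other kept probe also rose in both.

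Adgre1, the adhesion receptor that carries the classical mouse macrophage surface antigen, read 8.79 in WT saline against 10.16 and 10.35 in WT Ang-II, and 8.66 in TG saline against 9.52 and 9.61 in TG Ang-II. The groups were ordered saline, TG Ang-II and WT Ang-II, and Adgre1 rose 2.77-fold in WT (1.47 ± 0.17, adjusted p = 0.00899) and 1.88-fold in TG (0.91 ± 0.17, adjusted p = 0.0345). Its second probe read 8.19 in WT saline against 9.38 and 9.45 in WT Ang-II, and 8.17 in TG saline against 8.93 and 8.81 in TG Ang-II, and rose in WT (1.23 ± 0.16, adjusted p = 0.012) without passing in TG (0.70 ± 0.16, adjusted p = 0.0567). Its dimmest kept probe was detected on the WT Ang-II arrays only, at least 1.11-fold above WT saline (limma adjusted p = 0.0207 for the fitted difference). That probe was kept only through those arrays, so the filter favoured its rise. Aif1, the calcium-binding protein Iba-1 of macrophages, read 6.35 in WT saline against 7.57 and 7.60 in WT Ang-II, and 6.80 in TG saline against 6.81 and 6.86 in TG Ang-II. Only the WT Ang-II arrays stood apart, and Aif1 rose 2.35-fold in WT (1.24 ± 0.15, adjusted p = 0.0105) with a TG difference of 0.04 ± 0.15, adjusted p = 0.904. Its other probe, not detected in WT saline, was at least 1.73-fold higher in WT Ang-II (adjusted p = 0.0169) and did not pass in TG (-0.08 ± 0.18, adjusted p = 0.836).

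Lgals3, the galactoside-binding lectin galectin-3, read 10.84 in WT saline against 11.97 and 12.01 in WT Ang-II, and 11.09 in TG saline against 11.94 and 12.01 in TG Ang-II. All Ang-II arrays lay together above saline, and Lgals3 rose 2.23-fold in WT (1.16 ± 0.15, adjusted p = 0.0124) and 1.85-fold in TG (0.89 ± 0.15, adjusted p = 0.0281). Lyz2, the macrophage lysozyme, read 11.51 in WT saline against 12.17 and 12.49 in WT Ang-II, and 10.96 in TG saline against 12.15 and 12.14 in TG Ang-II. All Ang-II arrays stood above saline, with Lyz2 rising in TG (1.18 ± 0.19, adjusted p = 0.0239), and the WT difference just missed the threshold (0.82 ± 0.19, adjusted p = 0.0531). A second Lyz2 probe gave the opposite pair of calls, with values of 10.02 in WT saline against 11.21 and 10.92 in WT Ang-II, and 9.63 in TG saline against 10.17 and 10.03 in TG Ang-II. On that probe Lyz2 rose in WT (1.05 ± 0.19, adjusted p = 0.0303) and not in TG (0.48 ± 0.19, adjusted p = 0.192), so the genotype pattern of Lyz2 depends on the probe.

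Lyz1, the close copy of Lyz2, differed by 0.89 in WT and 0.82 in TG on its brightest probe, and signal shared between such copies could not be examined because probe sequences were not used here. Gpnmb, a lysosomal glycoprotein of lipid-laden macrophages, read 10.42 in WT saline against 11.29 and 11.36 in WT Ang-II, and 10.78 in TG saline against 11.26 and 10.97 in TG Ang-II. The lowest Ang-II array was a TG array, still above saline, and Gpnmb rose in WT (0.91 ± 0.18, adjusted p = 0.0398), and the TG difference was 0.34 ± 0.18, adjusted p = 0.319. Cd86, a costimulatory ligand for T cells, read 6.80 in WT saline against 7.96 and 7.68 in WT Ang-II, and 6.98 in TG saline against 7.77 and 7.47 in TG Ang-II. The Ang-II arrays of the genotypes overlapped, and Cd86 rose in WT (1.02 ± 0.21, adjusted p = 0.0413), with 0.64 ± 0.21, adjusted p = 0.132 in TG, although its second probe missed the threshold in WT (adjusted p = 0.0507).

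F13a1, the A subunit of coagulation factor XIII, read 10.46 in WT saline against 10.92 and 10.74 in WT Ang-II, and 10.19 in TG saline against 10.92 and 10.86 in TG Ang-II. Folr2, the folate receptor beta of resident macrophages, read 8.24 in WT saline against 8.78 and 8.54 in WT Ang-II, and 7.62 in TG saline against 8.36 and 8.19 in TG Ang-II. For both genes the Ang-II arrays of a genotype lay above its saline array. Neither passed in WT (F13a1 0.38 ± 0.16, adjusted p = 0.205 and Folr2 0.42 ± 0.18, adjusted p = 0.202) or in TG (F13a1 0.70 ± 0.16, adjusted p = 0.0614 and Folr2 0.65 ± 0.18, adjusted p = 0.0967), while both rose on average over the genotypes (adjusted p = 0.0288 and 0.0392). The other kept probe of Folr2 did not pass on that average (0.40 ± 0.18, adjusted p = 0.173).

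Set side by side, 13 members rose in both genotypes, against 2.22% of all genes. They were Adgre1, Cd52, Cd53, Csf1r, Fcer1g, Fcgr2b, Fcgr3, Laptm5, Lgals3, Mpeg1, Mrc1, Ms4a6d and Ms4a7, which is 54.2% of those that rose in WT and 92.9% of those that rose in TG. Over all genes, 218 rose in both, out of 599 that rose in WT and 514 that rose in TG. A further 11 passed in WT only by the threshold, namely Aif1, Cd14, Cd86, Clec4n, Clec7a, Cx3cr1, Gpnmb, Lcp1, Lilrb4a, Trem2 and Tyrobp, and Lyz2 passed in TG only. Cd163, Coro1a, F13a1, Fcgr1, Folr2 and Pf4 passed in neither. The TG difference was below the WT difference for 20 of 31 members (64.5%), and for 51.3% of all genes. Among the 20 are Fcgr1 and Lilrb4a, which were kept only through the WT Ang-II arrays, so the filter favoured this order for them. Across the 31 members the WT and TG differences, which share no array, correlated at 0.36, against 0.42 across all genes, and genes of a list are not independent.

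**Figure D2:**
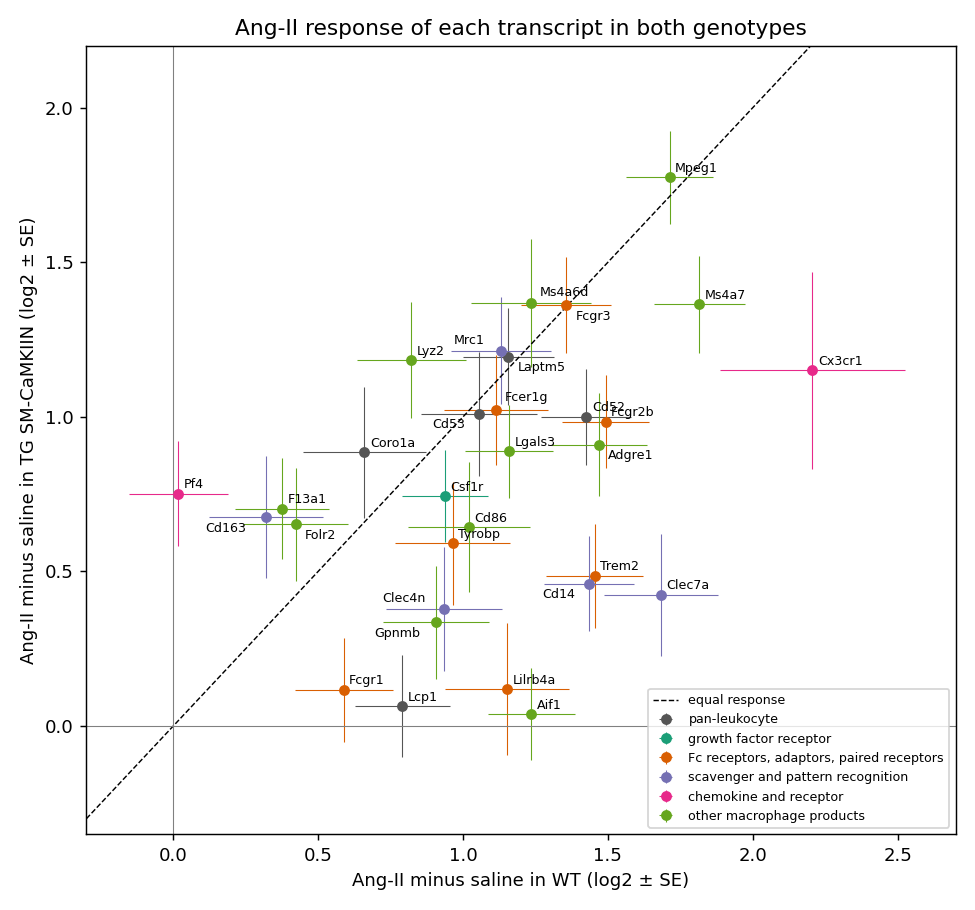
Each point is a tested member, with its Ang-II minus saline log2 difference in WT on the x axis and in TG on the y axis, bars of 1 SE and a dashed line of equal response. Fitted values are drawn, and the x values of Cx3cr1, Clec7a, Lilrb4a and Fcgr1 are taken against a WT saline array not above background. The y values of Cx3cr1, Lilrb4a and Fcgr1 are taken against a TG saline array not above background. Lilrb4a and Fcgr1 were not detected on any TG array, so their y values are not measured differences. Mpeg1, Fcgr3, Laptm5 and Mrc1 lie near the line at rises above 1 in both, while Aif1, Lilrb4a and Lcp1 lie near 0 on the y axis.

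A direct test of the difference between the responses passed for none of the 31 members in limma, against 0.722% of all genes with a larger TG difference and 0.539% with a smaller one. At an unadjusted p under 0.05 there were 7, against 13.5% of all genes, of which Aif1, Clec7a, Cd14, Trem2, Lilrb4a and Lcp1 had the smaller difference in TG and Pf4 the larger. The lowest adjusted p was 0.0774, for Aif1, whose TG response minus WT response was -1.20 on the log2 scale (SE 0.21). For Cd14 the same quantity was -0.97 ± 0.22, adjusted p = 0.129. Clec7a and Lilrb4a were not detected in WT saline, so their difference of responses has no exact size (adjusted p = 0.126 and 0.218). The 11 transcripts that passed in WT only are therefore not shown to respond differently in TG. The median SE of this test was 0.24, and 5 of the other processing choices called 1 to 3 members.

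Under Ang-II, 6 members were lower in TG than in WT aorta, none was higher and 25 did not pass, while 2.33% of all genes were lower and 3.02% higher. The median difference of the 31 was -0.28, against 0.00 for all genes. Among the 27 detected on all arrays 6 were lower, with a background of 2.98%. Both TG Ang-II arrays lay below both WT Ang-II arrays for 21 of the 31, against 26.5% of all genes, and above them for Cd163, Fcgr3 and Pf4, against 26.6%. The 21 include Fcgr1 and Lilrb4a, which were kept only through the WT Ang-II arrays, so the filter favoured this order for them. Leaving out 1 Ang-II array left at most 1 call, since none passed when either WT array was left out, Cx3cr1 alone passed without the first TG array and Fcer1g alone without the second.

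Fcer1g differed most, 2.16-fold lower in TG Ang-II (-1.11 ± 0.14, adjusted p = 0.0153). It was also lower in TG saline than in WT saline, by a difference of -1.02 ± 0.21, adjusted p = 0.129, and its 2 genotypes' responses differed by -0.09. Ms4a7 was 1.90-fold lower (-0.93 ± 0.13, adjusted p = 0.0182), with a saline difference of -0.47. Cd14 was 1.82-fold lower (-0.86 ± 0.13, adjusted p = 0.0203) and Lcp1 1.76-fold lower (-0.81 ± 0.13, adjusted p = 0.029), with saline differences of 0.11 and -0.09. The pattern for these 2 was thus a gap under Ang-II with saline arrays close together. Aif1 was 1.68-fold lower (-0.75 ± 0.12, adjusted p = 0.0285), although its TG saline array was the higher of the saline pair by 0.45. The other probe of Aif1 did not pass here (-0.47 ± 0.15, adjusted p = 0.149). Adgre1 was 1.61-fold lower (-0.69 ± 0.14, adjusted p = 0.0494), and its second probe did not pass (-0.55 ± 0.13, adjusted p = 0.0741). The Adgre1 call is the closest to the threshold and was lost when the replicate number was added as a block or the heart muscle, adipocyte and red cell probes were left out, when no detection filter was used and when any 1 of the 4 Ang-II arrays was left out.

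Several other members came near the threshold or had small differences. Fcgr1, detected only in WT Ang-II, was at least 1.15-fold higher there than in TG Ang-II (adjusted p = 0.0528), and Clec7a differed by -0.78 ± 0.16, adjusted p = 0.0546. Csf1r differed by -0.47 ± 0.12, adjusted p = 0.0906. At the other end, Lgals3 (-0.02 ± 0.12, adjusted p = 0.956), Cd52 (-0.06 ± 0.13, adjusted p = 0.835), Mpeg1 (-0.12 ± 0.12, adjusted p = 0.621) and Laptm5 (-0.13 ± 0.13, adjusted p = 0.603) differed little, and Fcgr3 had the largest positive difference (0.42 ± 0.13, adjusted p = 0.127). The second Lyz2 probe, which does not represent the gene, was lower in TG (-0.96 ± 0.15, adjusted p = 0.0263). Values that miss the threshold do not show that the genotypes had the same level.

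**Figure D3:**
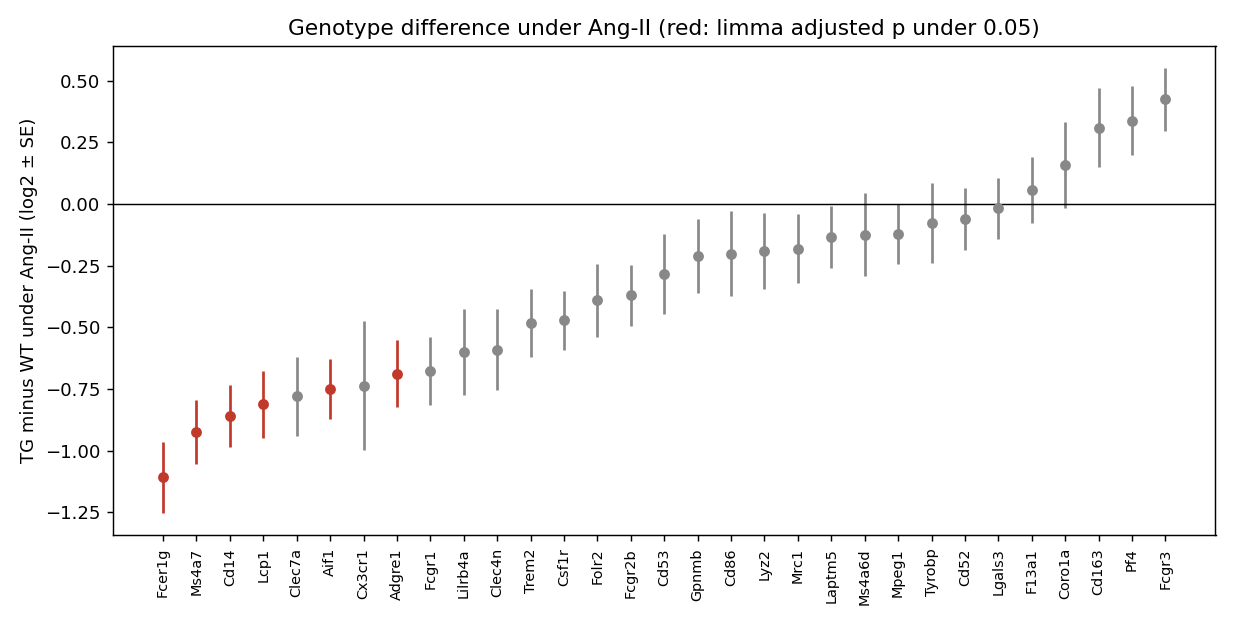
Points are the TG minus WT log2 difference under Ang-II for each of the 31 tested members, in rank order, with bars of 1 SE and red for a limma adjusted p under 0.05. The 6 red points run from Fcer1g at -1.11 to Adgre1 at -0.69, and 5 members lie above 0.

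Between the saline arrays none of the 31 members passed in limma, against 0.102% of all genes that were higher and 0.061% that were lower in TG. With 1 array a side this test is coarse, with a median SE of 0.20. At an unadjusted p under 0.05 there were 6 members, against 13.7% of all genes, of which Fcer1g, Folr2, Lyz2 and Ms4a7 were lower in TG saline and Aif1 and Trem2 higher. The median difference was -0.07.

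A short list held ligands of member receptors, and also Thbs1 and Csf2, for which no receptor is named among the members here. Of 8 listed, 5 were tested, and 2 rose in WT and 1 in TG, against 6.09% and 5.23% of all genes. Csf1, the main ligand of Csf1r, read 8.92 in WT saline against 8.65 and 8.57 in WT Ang-II, and 8.89 in TG saline against 9.17 and 8.69 in TG Ang-II and passed in neither genotype, and Cx3cl1, the ligand of Cx3cr1, read 8.65 in WT saline against 9.15 and 9.41 in WT Ang-II, and 8.88 in TG saline against 9.12 and 9.20 in TG Ang-II and passed in neither. Thbs1, thrombospondin, rose at least 2.77-fold in WT (adjusted p = 0.0108) and at least 1.85-fold in TG (adjusted p = 0.0467). It is 1 of the 2 listed genes that rose in WT and the 1 that rose in TG. Thbs1 was kept only through Ang-II arrays, so the filter favoured these rises. The monocyte chemokine Ccl7 read 5.80 in WT saline against 7.25 and 7.27 in WT Ang-II, and 6.29 in TG saline against 5.76 and 6.28 in TG Ang-II. It rose in WT (1.46 ± 0.24, adjusted p = 0.0236), not in TG (-0.27 ± 0.24, adjusted p = 0.537), and was lower in TG than in WT under Ang-II (-1.24 ± 0.20, adjusted p = 0.0254). Ccl2, Csf2 and Il34 were not kept. Csf1, Cx3cl1 and Ccl7 were named after their values were seen.

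A second list of 45 myeloid genes that are not members had 24 tested. In WT 12 rose and none fell (median 0.89), and in TG 5 rose and none fell (median 0.61). Of all genes 6.09% rose in WT and 5.23% in TG. Ncf4, a subunit of the phagocyte oxidase, read 5.60 in WT saline against 7.59 and 7.69 in WT Ang-II, and 6.31 in TG saline against 6.90 and 6.90 in TG Ang-II, at least 4.03-fold higher in WT Ang-II (adjusted p = 0.00405) and 1.50-fold higher in TG Ang-II (adjusted p = 0.0828). Il1b, the cytokine interleukin-1 beta, read 5.17 in WT saline against 6.95 and 7.12 in WT Ang-II, and 5.46 in TG saline against 6.25 and 5.95 in TG Ang-II, at least 2.65-fold higher in WT (adjusted p = 0.00766) and not past the threshold in TG (adjusted p = 0.115). Irf8, a transcription factor of monocytes and dendritic cells, rose in WT (1.01 ± 0.15, adjusted p = 0.0183) and in TG (1.08 ± 0.15, adjusted p = 0.0173), and Cd84, an adhesion receptor of leukocytes, was detected on neither saline array, at least 2.08-fold higher in WT Ang-II (adjusted p = 0.0139) and at least 1.68-fold higher in TG Ang-II (adjusted p = 0.0589). Under Ang-II, Ncf4 (-0.74 ± 0.12, adjusted p = 0.0313) and Il1b (-0.94 ± 0.16, adjusted p = 0.0319) were lower in TG, Rac2 was detected in WT only and at least 1.26-fold lower in TG (adjusted p = 0.011), and Lyve1, a hyaluronan receptor of lymphatic vessels and resident macrophages, was higher (0.80 ± 0.14, adjusted p = 0.038). Il1b and Cd84 were kept only through Ang-II arrays, so the filter favoured their rises. Rac2 and Lyve1 were named after their values were seen.

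The MHC class II genes, by which macrophages, dendritic cells and B cells present antigen, were all tested. Of the 7, 5 rose in WT (median 1.57) and 5 in TG (median 1.11), with none passing between the genotypes under Ang-II. Of all genes 6.09% rose in WT and 5.23% in TG. H2-Ab1, the beta chain of the I-A molecule, read 9.41 in WT saline against 11.46 and 11.45 in WT Ang-II, and 10.53 in TG saline against 11.99 and 12.18 in TG Ang-II, a rise of 4.13-fold in WT (2.05 ± 0.16, adjusted p = 0.00433) and 2.94-fold in TG (1.56 ± 0.16, adjusted p = 0.00926). Cd74, the invariant chain, rose 3.31-fold in WT (1.73 ± 0.15, adjusted p = 0.00516) and 2.17-fold in TG (1.11 ± 0.15, adjusted p = 0.0163), and H2-Eb1 rose in both (adjusted p = 0.00687 and 0.0123). H2-Aa rose in TG (adjusted p = 0.0457) and missed the threshold in WT (adjusted p = 0.0552).

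Markers of other cells moved alongside, and their part in the results for the members was not tested. Beside the counts that follow, 6.09% of all genes rose in WT and 5.23% in TG. Of 12 neutrophil markers 3 were kept, and their summed level went from 6.79 in WT saline to 7.31 and 7.06 in WT Ang-II, and from 7.54 in TG saline to 8.36 and 8.42 in TG Ang-II. S100a8 and S100a9, calcium-binding proteins of neutrophils and monocytes, rose in TG (adjusted p = 0.00936 and 0.0449) and not in WT (adjusted p = 0.68 and 0.301). S100a8 was not detected in TG saline and was at least 2.78-fold higher in TG Ang-II. The other kept marker went the opposite way in TG (-1.05) without passing. Ly6g, Elane, Mpo and Camp were not kept. Of 8 dendritic markers 3 were kept, and Siglech and Cd209a passed as higher in WT (adjusted p = 0.0127 and 0.0152) and in TG (adjusted p = 0.0265 and 0.0164). Siglech was not detected in WT saline and was at least 2.51-fold higher in WT Ang-II. Cd209a was detected on neither saline array, and its bounds were only at least 1.01-fold in WT and 1.05-fold in TG. It was kept only through Ang-II arrays, so the filter favoured its 2 calls. The other kept dendritic marker passed in neither genotype (0.21 in WT and -0.25 in TG). No B or plasma cell marker of 8 and only Cd3d and Cd3e of 12 T and NK cell markers were kept, and Cd3d, detected in WT saline and on neither WT Ang-II array, was at least 1.50-fold lower in WT Ang-II (adjusted p = 0.0099). Of 7 mast cell markers 6 were kept, and 2 rose in TG, among them the carboxypeptidase Cpa3 (1.02 ± 0.18, adjusted p = 0.0296), and none in WT. Of 7 platelet markers 5 were kept, and 1 rose in WT and 3 in TG, with the platelet chemokine Ppbp rising in both (adjusted p = 0.0258 and 0.0137).

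Tissue attached to or inside the aorta also differed between arrays. The summed log2 level of 11 heart muscle genes went from 12.21 in WT saline to 11.25 and 11.33 in WT Ang-II, and from 11.79 in TG saline to 14.63 and 14.58 in TG Ang-II. In this list 8 genes fell in WT and 8 rose in TG, among them the muscle oxygen carrier Mb (4.21 ± 0.15, adjusted p = 0.000561 in TG). Of all genes 2.63% fell in WT and 5.23% rose in TG. The 5 red cell genes went from 14.57 in WT saline to 16.50 and 16.48 in WT Ang-II, and from 15.42 in TG saline to 15.52 and 15.67 in TG Ang-II, and all 5 were lower in TG than in WT under Ang-II. The 10 adipocyte genes went from 14.37 in WT saline to 15.39 and 15.44 in WT Ang-II, and from 14.77 in TG saline to 14.89 and 14.92 in TG Ang-II, and 5 were lower in TG under Ang-II. The red cell and adipocyte sums were thus higher in WT Ang-II than in TG Ang-II, in the same direction as the 6 members lower in TG, and their part in that result was not tested. Other lists went the opposite way, with 10 of 11 heart muscle, 4 of 5 platelet and 2 of 3 neutrophil genes higher in TG under Ang-II. Of all genes 3.02% were higher and 2.33% lower in that comparison. The 31 members went from 14.06 in WT saline to 15.01 and 15.02 in WT Ang-II, and from 13.92 in TG saline to 14.84 on both TG Ang-II arrays.

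Structural cells of the wall are the remaining comparison. Over all genes, 6.09% rose and 2.63% fell in WT, and 5.23% rose and 1.56% fell in TG. Of 11 fibroblast genes 6 rose in WT and 5 in TG, and none passed between the genotypes under Ang-II. Col1a1, the main collagen of the adventitia, rose 3.52-fold in WT (1.82 ± 0.16, adjusted p = 0.00503) and 3.03-fold in TG (1.60 ± 0.16, adjusted p = 0.00805). Of 8 endothelial genes Cdh5, the endothelial cadherin, rose in WT (1.04 ± 0.16, adjusted p = 0.019), and 3 fell in TG, among them Pecam1, an endothelial adhesion molecule (-0.98 ± 0.18, adjusted p = 0.0357). Of 10 smooth muscle genes 3 fell in WT, among them Tagln, an actin-binding protein of the contractile apparatus (-1.06 ± 0.15, adjusted p = 0.0147), and Myocd, a transcriptional coactivator of contractile genes, rose in TG (1.50 ± 0.17, adjusted p = 0.00944).

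**Figure D4:**
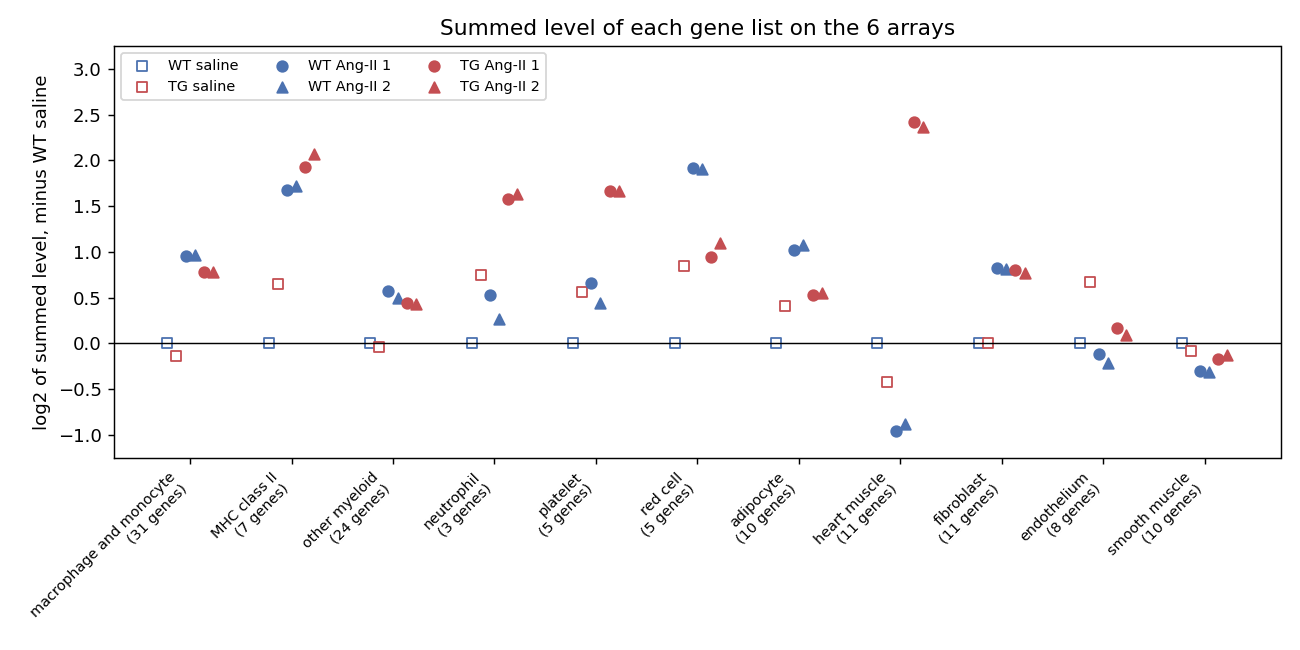
Each point is the log2 of the summed level of the tested genes of a list on 1 array minus that on the WT saline array, with open squares for saline and filled symbols for Ang-II, blue for WT and red for TG. The macrophage and monocyte list, at 14.06 on the WT saline array, reaches 14.84 to 15.02 on the 4 Ang-II arrays, while heart muscle, red cell and adipocyte lists part the WT and TG Ang-II arrays.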

How the data were processed

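Total RNA of thoracic aorta was hybridised to 6 Illumina expression arrays. Deposited signals are mean bead intensities of a probe on a linear scale, per the file headers, and the deposited detection p-value columns test each probe against negative controls on its array. Deposited bead standard errors and bead numbers were not used as weights. The authors' deposited log2 value table equalled, at all 271686 values within 1e-08, neqc with an offset of 16 computed from those intensities. The submitters' processing notes name GenomeStudio 2011.1 and limma 3.22.1 without their roles.

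Intensities were background corrected and quantile normalized with neqc in limma 3.58.1 (R 4.3.3). Probes detected at p under 0.01 on at least 2 arrays were kept (16749 of 45281), and each of 9837 genes was represented by its kept probe of highest mean. Symbols came from the platform annotation, updated through RefSeq (GRCm38.p6), where 34885 probes had 1 symbol, 18 several and 10378 none. Means of 4 groups were fitted to all arrays with 2 residual and 3.75 prior degrees of freedom, with Benjamini-Hochberg adjustment over kept probes. The number of arrays limits the precision. Members and lists were chosen with earlier results of these data known. Values are printed for tested members, for other kept probes whose call differs and for up to 4 genes of each other list, those of largest average Ang-II difference that passed. Alternatives were other normalizations, offsets, filters, probe rules, priors and array weights, a replicate block, the fit without heart muscle, adipocyte and red cell probes, and each Ang-II array left out. The script was tested on simulated data.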

Additional observations from a re-analysis of the deposited data

Results flagged for a closer look

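Several results were marked because the Ang-II difference was unlike in the 2 genotypes. For 2 member probes and 1 gene of another list the Ang-II arrays lay on opposite sides of saline in WT and TG, but arrays without detection enter each of these differences, so no size or direction is read from them. The dimmest kept probe of Adgre1, detected on the WT Ang-II arrays only, had a fitted TG minus WT response of -1.18 (SE 0.21, limma adjusted p = 0.0831). The second probe of Aif1, undetected in WT saline, had a fitted value of -1.33 (SE 0.26, limma adjusted p = 0.0961). The representative probes of both genes lay above saline in both genotypes. The T cell receptor chain Cd3d, detected in WT saline and on 1 TG Ang-II array, had a fitted value of 1.52 (limma adjusted p = 0.052). For these 3 the direct test of the difference did not pass.

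Among the red cell, adipocyte and heart muscle lists the direct test passed in limma for 17 genes, of which 10 are named. In the heart muscle list the response in TG exceeded that in WT by 4.52 for Actc1, the cardiac actin (adjusted p = 0.00154), 6.41 for Mb (adjusted p = 0.000974) and 1.99 for Myl7, an atrial myosin light chain (adjusted p = 0.0224). Myl3, a cardiac myosin light chain, had a fitted value of 6.63 (adjusted p = 0.00148) but was not detected in WT Ang-II, so this is no exact size. The TG response was smaller for the adipocyte genes Ucp1, the brown fat uncoupling protein, at -2.60 (adjusted p = 0.0126), and Cidea, a lipid droplet protein, at -2.02 (adjusted p = 0.0209). It was also smaller for the haem synthesis enzyme Alas2, at -2.36 (adjusted p = 0.018), and for the beta-globin genes Hbb-bt, at -1.85 (adjusted p = 0.0301), and Hbb-bs, at -1.69 (adjusted p = 0.0481). The red cell anion exchanger Slc4a1 had a fitted value of -2.66 (adjusted p = 0.0149) but was detected on the WT Ang-II arrays only and was at least 5.34-fold higher there than in TG Ang-II.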

How the results depend on the processing

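The values of this section refer to the 31 tested members. Of 14 alternatives, the deposited table holds the same values as the main fit and could only give the same calls. Array weights and the fit without heart muscle, adipocyte and red cell probes left 24 rises in WT and 14 in TG. Testing every probe without a detection filter lowered these to 14 and 8, over 39 members. Leaving out each Ang-II array in turn gave 2 to 24 rises in WT, 6 to 8 in TG and 0 to 1 calls between the genotypes under Ang-II. Those fits have fewer residual degrees of freedom than the main fit. The count between the genotypes under Ang-II was 10 under quantile normalization without background correction, with 1 higher and 9 lower. Between the saline arrays 1 member was called under quantile normalization, 1 with an offset of 50 and 2 with a trended robust prior. The difference between the responses was called for 3 members under quantile normalization, 1 with an offset of 50, 1 with detection on all 6 arrays, 1 with probes averaged per gene and 2 with the trended prior. The replicate numbers of WT and TG share only a number (correlation of replicate differences 0.12), and with the replicate block 23 rose in WT, 13 in TG and 5 were lower in TG under Ang-II, Clec4n, Csf1r and Adgre1 being lost in the respective comparison. Averaging probes turned Aif1 in TG to -0.019 and Ms4a6d between genotypes to 0.011. With 1 Ang-II array left out, the sign changed for Pf4 in WT (-0.085 to 0.12) and, between the genotypes under Ang-II, for Cd52 (-0.12 to 0.00), Coro1a (-0.052 to 0.37), F13a1 (-0.035 to 0.15), Lgals3 (-0.051 to 0.015), Ms4a6d (-0.32 to 0.072) and Tyrobp (-0.25 to 0.10). Over the single-gene values under all alternatives, 1117 kept direction and side of the threshold, 120 lost a call, 43 gained one and these 10 changed sign. The 1117 include all values of the deposited table, which could not differ. None of the 10 had passed, and the causes were not tested. Dim members limit what can be measured, since 8 were not detected and Fcgr1, Lilrb4a, Cx3cr1 and Clec7a were undetected on at least 1 array.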
